A study of Mus musculus with 18 samples.

Results

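The effect of polyamine synthesis inhibition alone was read from 6 of the 18 libraries of a study in MIN6 cells (an insulinoma-derived mouse beta cell line): 3 of cells given vehicle and 3 of cells given 5 mM DFMO (α-difluoromethylornithine) for 24 h, all without cytokines. The libraries were chosen by their labels, which call the replicates biological. The other groups used for comparison were vehicle and DFMO, each with a cytokine mix (IFN-γ, TNF-α and IL-1β), and 10 µM DENSpm (N1,N11-diethylnorspermine) without cytokines, with 3 libraries each. MIN6 is a transformed, dividing line, so it is a limited model of beta cells, which rarely divide in adult islets. Nothing in the labels says that the replicates were separate cultures, so p-values reflect the spread among these libraries, which may be technical.

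Polyamines are small cations (putrescine, spermidine and spermine) that bind nucleic acids and are needed for growth and division. Ornithine decarboxylase makes putrescine from ornithine, and DFMO inactivates this enzyme irreversibly. Spermidine also supplies the aminobutyl group from which deoxyhypusine synthase forms the hypusine residue of the translation factor eIF5A. DENSpm, a spermine analogue, depletes polyamines by another route, since it raises their catabolism through spermidine/spermine acetyltransferase.

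The table gives a count for each gene symbol, and most counts stood in rows whose exons lie opposite those of another gene. Such rows held between 81.4% and 83.0% of the counts of each of the 6 libraries. A row is therefore named here by its own symbol and by the gene whose exons it faces on the other strand. A gene named without its row is the gene faced, except where a value is given by own symbol or the row faces no gene. Reads of a gene and of its partner on the other strand cannot be told apart in these tables, so each value is that of a row. CPM are counts scaled to a common library total with TMM factors, except in sums over marker lists, which use the library total without TMM factors. Differences are log2 changes (DFMO minus vehicle) ± SE with 3 libraries per group. A row was called changed at an adjusted p under 0.05 (edgeR quasi-likelihood test, Benjamini-Hochberg over all rows tested).

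To show the sequence context of rows that fell, the 250 bases before the first RefSeq transcription start of 3 of the genes faced are printed 5′ to 3′ on the gene's own strand (RefSeq, GRCm38.p6), with motif matches in capitals. Ncapg (chr5:45669675-45669924, plus strand) and Oip5 (chr2:119618506-119618755, minus strand) serve mitosis. In both, capitals mark the cell cycle homology region (TTTGAA or TTTAAA, either strand) and the CCAAT box (CCAAT, either strand), elements known from promoters of late cell cycle genes. Txnip (chr3:96557707-96557956, plus strand) is induced by glucose through a carbohydrate response element, and capitals mark the match to 2 copies of CACGNG that are 5 bases apart.
Ncapg: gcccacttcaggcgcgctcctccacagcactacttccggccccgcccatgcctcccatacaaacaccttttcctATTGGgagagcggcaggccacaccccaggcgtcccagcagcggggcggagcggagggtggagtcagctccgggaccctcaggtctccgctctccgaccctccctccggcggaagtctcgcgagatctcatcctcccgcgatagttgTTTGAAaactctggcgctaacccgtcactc
Oip5: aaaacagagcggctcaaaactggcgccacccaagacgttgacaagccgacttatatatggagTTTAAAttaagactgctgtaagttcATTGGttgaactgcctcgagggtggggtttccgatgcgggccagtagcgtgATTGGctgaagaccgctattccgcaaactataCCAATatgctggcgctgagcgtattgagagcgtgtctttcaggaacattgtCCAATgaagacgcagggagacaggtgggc
Txnip: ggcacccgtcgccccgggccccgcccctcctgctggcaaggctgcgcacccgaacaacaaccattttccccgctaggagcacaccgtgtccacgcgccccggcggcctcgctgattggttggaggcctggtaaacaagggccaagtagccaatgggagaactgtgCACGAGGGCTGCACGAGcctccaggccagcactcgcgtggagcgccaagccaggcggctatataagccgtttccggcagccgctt
Of all 27025 windows of this length, 25.5% held a cell cycle homology region, 34.5% a CCAAT box and 0.0518% the carbohydrate response element, that is, 14 windows. Of the 1354 windows of genes faced by a tested row, 16.2%, 37% and 0.222% held these. The match before Txnip begins 85 bases before the start. The CCAAT motif also occurs in the Txnip window, where it is not capitalised. A window was at hand for 14 of the 23 cell cycle genes whose rows fell, and 3 of these 14 held the cell cycle homology region and 7 the CCAAT box. An E2F motif (TTTGGCGC, TTTCCCGC, TTTGCCGC or TTTCGCGC, either strand) was held by 0 of the 14. It was held by 1.91% of all windows and by 3.1% of those of genes faced by a tested row. Ncapg and Oip5 are the 2 of these 14 genes that held both of the first motifs, so they do not stand for the others. A match is a description of the letters and not a site shown to be used.

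Total counts ran from 484241 to 625539 in the vehicle libraries and from 436327 to 507273 in the DFMO libraries, and 12697 of 24557 rows held at least 1 count in these 6. After the filter on low counts 3302 rows were tested, with 96.6% of the counts. No library stood apart: the second principal component of the 12 libraries with and without cytokines (18.2% of the variance) ran from 14.5 to 19.9 in the 6 libraries without DFMO and from -13.3 to -21.1 in the 6 with it. Of 20 beta cell markers, 19 held a count under their own symbol, with Glp1r at 0, and their summed level was 3889 to 5547 CPM in vehicle and 4422 to 5587 CPM in DFMO. Of 14 markers of other islet cells 7 were at 0 (among them Hhex, Irx1, Irx2, Pou3f4, Ppy and Pyy), and the list summed to 62.0 to 110 CPM in vehicle and 90.7 to 160 CPM in DFMO. Acinar and ductal markers (15 of 24 at 0, among them Prss1, Cpa1 and Ptf1a) summed to 74.3 to 163 CPM in vehicle and 78.9 to 131 CPM in DFMO. Endothelial, stromal, immune and neural markers (20 of 30 at 0, among them Pecam1 and Ptprc) summed to 35.1 to 63.9 CPM in vehicle and 33.5 to 45.8 CPM in DFMO. The 85 ribosomal protein rows by own symbol held 0.126% to 0.183% of the counts of each of these 6 libraries. If reads were counted on the other strand, a row by own symbol does not measure its own gene. Marker levels at or near 0 then do not show that a cell type was absent. This limit holds for every value given by own symbol. The part of the marker levels in the results was not tested.

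DFMO changed 482 of the 3302 rows (14.6%), of which 266 were higher (8.06%) and 216 lower (6.54%). Of these, 260 higher and 210 lower rows had groups that did not overlap, which held for 31.6% of all rows tested. Most called rows thus had separate groups, and rows named by lowest p or largest change were required to. Where separate groups are stated for a named row, they are therefore no further support. A change of at least 2-fold was seen in 146 higher and 85 lower rows. The number of higher rows was 172 without DFMO 2 and the other fits without 1 library gave 178 to 213, while lower rows numbered 153 to 179 in these fits. Taking 1 row for each gene faced, the one with the most counts, 178 of 1993 genes were higher (8.93%) and 177 lower (8.88%), with a median log2 change of -0.01, and this is the background for the gene lists.

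**Figure D1:**
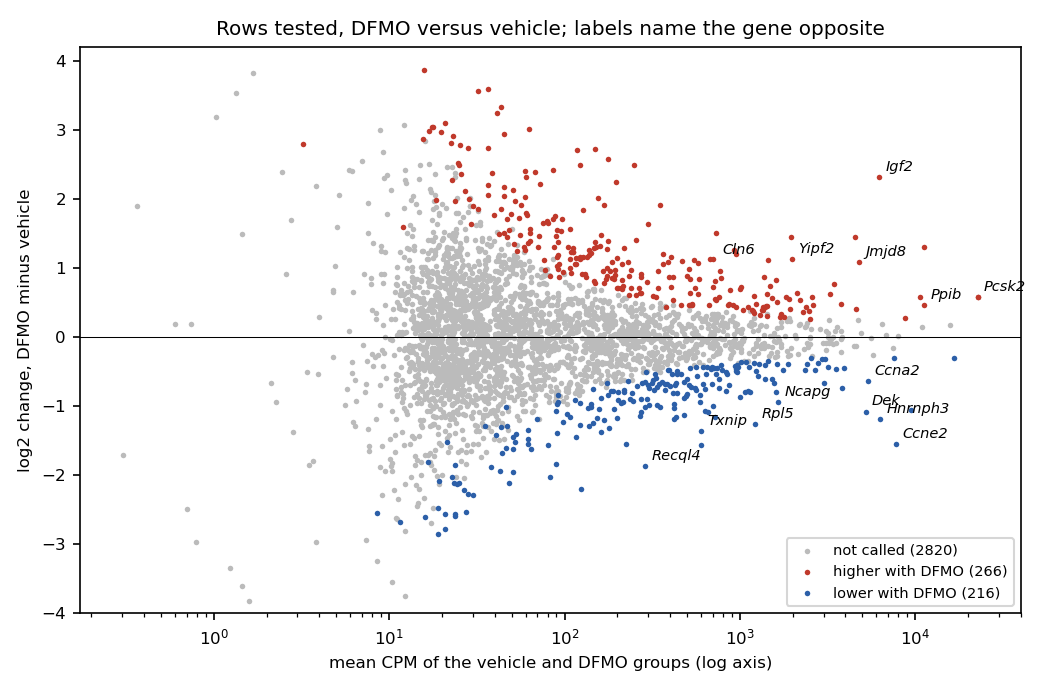
Log2 change (DFMO minus vehicle) against the mean CPM of the 2 groups on a log axis, 1 point per row tested; red and blue points are called higher and lower and grey points are not called. The labels name the gene faced, from Igf2 at 2.32 to Recql4 at -1.87, and 5 rows with larger changes lie outside the axis.

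Over the lists of DNA replication, repair and mitosis, 23 of 57 genes faced were lower by the test and 0 higher. Of the 57 values 45 lay below 0 and 12 above, and the median log2 change was -0.57. The number of lower genes ran from 20 to 26 over the alternatives, and DESeq2 also called 0 higher (1 was higher at unadjusted p under 0.05 by edgeR). Of these lists by own symbol, 1 of 27 replication rows was higher and 4 lower, 1 of 29 repair rows was higher and 3 lower, and 2 of 27 mitosis rows were higher and 5 lower. In bulk RNA, fewer cells in a phase of the cycle and less RNA per cell cannot be told apart.

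Of 15 genes of S phase and replication faced by a tested row, 8 were lower and 0 higher (median -0.66). Cyclin E2, encoded by Ccne2, drives entry into S phase with Cdk2. The Ints8 row (gene ID 72656, chromosome 4, 11199158 to 11254258; 609 bp of overlap with Ccne2 exons) held 10995, 10970.4 and 13004 CPM in the vehicle libraries and 3977, 3822 and 4112 CPM in the DFMO libraries. All DFMO libraries lay at about the same level, far below the vehicle libraries. Group means were 11656 ± 1167 CPM with vehicle and 3970.2 ± 146 CPM with DFMO (SD, n = 3), a log2 change of -1.55 ± 0.09, adjusted p = 3.2e-18.

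Cyclin A2, encoded by Ccna2, acts after cyclin E in S phase and at entry into mitosis. The Exosc9 row, opposite Ccna2, held 6644, 7022 and 6050.4 CPM in the vehicle libraries and 4173, 4235 and 4261 CPM in the DFMO libraries (-0.64 ± 0.09, adjusted p = 2.7e-07). The groups did not overlap, and the fall was smaller than that opposite Ccne2. At this locus the Ccna2 row, which faces the exosome gene Exosc9, fell as well (-0.44 ± 0.11, adjusted p = 0.00369), a call lost without vehicle 3 (adjusted p = 0.0527).

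Recql4 encodes a RecQ helicase needed for the start of replication. Its row, Mfsd3, held 444, 417 and 497 CPM in the vehicle libraries and 121, 103 and 146 CPM in the DFMO libraries (-1.87 ± 0.24, adjusted p = 4.9e-08). Every DFMO library was below every vehicle library here. The Wsb2 row, opposite the clamp loader subunit gene Rfc5, fell from a lower level (68.0 ± 9.38 CPM with vehicle and 17.7 ± 5.20 CPM with DFMO; -1.93 ± 0.49, adjusted p = 0.00384). Smaller falls were measured opposite Gins2 (Gse1, -0.82 ± 0.15), a subunit of the replicative helicase, and opposite Chaf1a (Ubxn6, -0.77 ± 0.15), a histone chaperone at replication forks. The same held opposite Orc4 (Acvr2a, -0.69 ± 0.17) of the origin recognition complex and Rfc4 (Eif4a2, -0.66 ± 0.17) of the clamp loader, with adjusted p between 4.4e-05 and 0.00402. The Rfc4 call was lost without vehicle 3 (adjusted p = 0.0570). Of the 7 genes not called, the lowest value was -0.79, opposite the clamp loader gene Rfc2.

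Of 28 genes of DNA repair faced, 9 were lower and 0 higher (median -0.44). Rad54l encodes a DNA translocase of homologous recombination, and the Lrrc41 row opposite it held 541, 654 and 568 CPM in the vehicle libraries and 340.4, 224 and 212 CPM in the DFMO libraries (-1.19 ± 0.19, adjusted p = 4.3e-06). DFMO 1 was the highest of the DFMO libraries and still below every vehicle library.

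Of the Fanconi anaemia pathway, which repairs DNA crosslinks, the rows opposite Fanci (Polg, -0.98 ± 0.19), Fancl (Vrk2, -0.97 ± 0.26), Fancd2 (Fancd2os, -1.07 ± 0.38) and Fanca (Zfp276, -0.44 ± 0.14) fell, with adjusted p = 1.8e-04, 0.00574, 0.0478 and 0.0225 by edgeR. Rows opposite Fancc (-0.48 ± 0.37) and Fancf (0.03 ± 0.52) were not called. Ddb2, which recognises ultraviolet damage, was faced by the Acp2 row at 234, 143 and 238 CPM with vehicle against 70.9, 57.2 and 130.3 CPM with DFMO (-1.24 ± 0.30, adjusted p = 0.00213). Falls were also called opposite Rad9a (Ppp1ca, -0.60 ± 0.15), a subunit of the checkpoint clamp, and opposite the nuclease gene Dclre1b (Gm15471, -0.67 ± 0.18). Other repair genes were not called, among them Trp53bp1 (Tubgcp4, 0.01 ± 0.11) and Eme2 (Spsb3, 0.09 ± 0.11), which are among the better covered rows of this list. Some missed the threshold with lower values, such as Recql (Pyroxd1, -0.34 ± 0.12, adjusted p = 0.0559) and Lig3 (Rffl, -0.58 ± 0.23, adjusted p = 0.0899). Of the 28 values 20 lay below 0 and 8 above. At unadjusted p under 0.05 by edgeR 14 were lower and 0 higher. The Vrk2 row overlaps 462 bp of Fancl and 477 bp of Gm6899, and the Ppp1ca row 225 bp of Rad9a and 191 bp of AC109138.6. The calls opposite Fancl and Dclre1b were lost without DFMO 1 and DFMO 3 (adjusted p = 0.0673 and 0.0775). That of Fanca was lost without any 1 library except vehicle 3 and DFMO 1, and that of Fancd2 without any except DFMO 2 (adjusted p up to 0.134 and 0.218).

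Of 14 mitotic genes faced, 6 were lower and 0 higher (median -0.61). Ncapg encodes a subunit of condensin I, which compacts mitotic chromosomes. The Lcorl row opposite it (gene ID 209707, chromosome 5, 45697181 to 45857615, 944 bp of overlap) held 2156, 2272 and 2113 CPM in the vehicle libraries and 1078, 1151 and 1164 CPM in the DFMO libraries (-0.95 ± 0.11, adjusted p = 2.2e-09). The DFMO libraries stood at about the same level among themselves. Oip5 encodes a protein that loads the centromeric histone CENP-A, and the Nusap1 row opposite it held 371, 351 and 430.1 CPM in the vehicle libraries and 175, 216 and 180.4 CPM in the DFMO libraries (-1.01 ± 0.20, adjusted p = 2.6e-04). The groups were again separate.

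The kinetochore, which ties chromosomes to the spindle, accounted for the other mitotic calls. These were the rows opposite Zwilch (Lctl, -1.13 ± 0.20), Ska3 (Sap18, -0.90 ± 0.22, 78 bp of overlap), Cenpu (Primpol, -0.68 ± 0.19) and Mis12 (Derl2, -0.66 ± 0.16), with adjusted p between 3.9e-05 and 0.00798. The Cenpu call was lost without vehicle 1 or DFMO 1 (adjusted p up to 0.0823). The Cdc23 row, opposite the mitotic kinesin gene Kif20a, was the best covered of the list and was not called (-0.25 ± 0.11, adjusted p = 0.141).

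**Figure D2:**
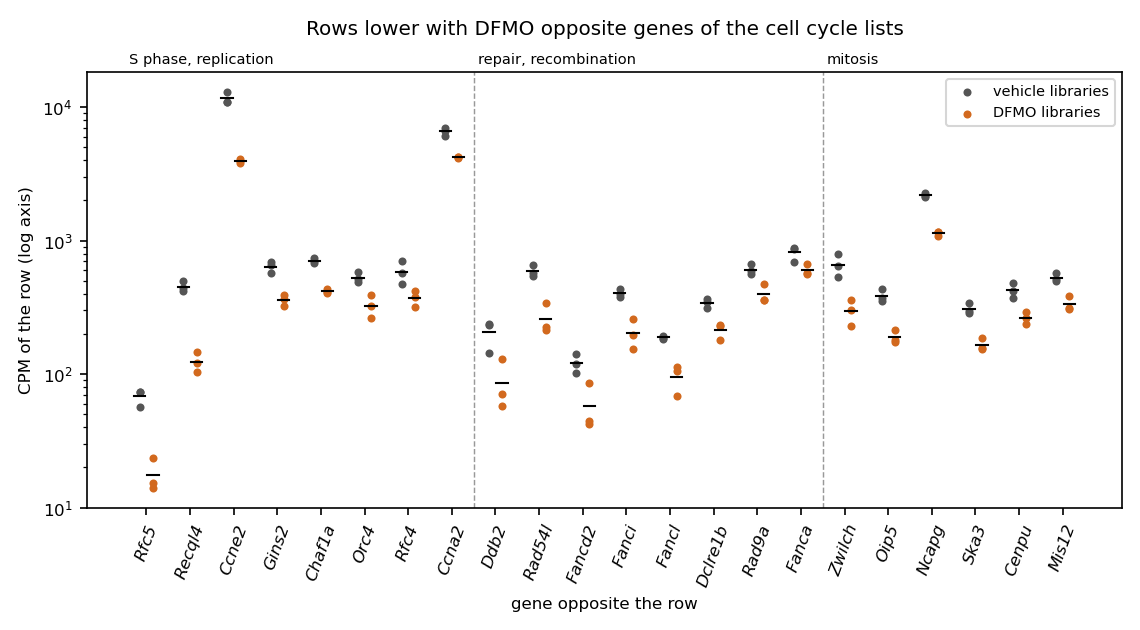
CPM on a log axis for each vehicle library (grey) and DFMO library (orange) of 22 of the 23 lower rows, named by the cell cycle gene faced; black bars are group means. The drop is seen from the row of lowest level (Rfc5) to that of highest level (Ccne2), with groups that do not overlap in any of these 22. They were chosen by their call, and 210 of all 216 rows called lower had separate groups. Over all genes faced, called or not, groups were separate in 36.2%.

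The rise of largest statistical support was opposite Igf2, an imprinted growth factor gene. The Igf2os row, which overlaps 98 bp of Igf2 exons and 1142 bp of Gm49394, held 2246, 2209 and 1759 CPM in the vehicle libraries and 11968, 11456 and 7568 CPM in the DFMO libraries (2.32 ± 0.12, adjusted p = 2.3e-20). DFMO 3 was the lowest of its group and still over 3 times the highest vehicle library. Of the 10 IGF and insulin signalling genes faced, this was the 1 call, and the median was -0.12. The row of C1qtnf1, a secreted protein related to complement C1q, was Gm11747, at 362, 473 and 306 CPM with vehicle against 1293, 1148 and 794 CPM with DFMO (1.51 ± 0.17, adjusted p = 1.1e-09).

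Rows facing genes of the lysosome, the Golgi and the endoplasmic reticulum (ER) rose more often than they fell. Over 3 lists together, 19 of 68 genes were higher and 1 lower, 45 lay above 0, and the median log2 change was 0.17. The count fell whichever 1 library was left out, as did the number of all higher rows. It was 12 without vehicle 1 or vehicle 2, 13 without DFMO 2 or DFMO 3, and 14 without vehicle 3 or DFMO 1. By own symbol these lists had 2 higher and 1 lower of 42 lysosomal rows, 3 and 2 of 47 Golgi rows, and 1 and 2 of 32 ER rows.

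Of 26 lysosomal genes faced, 8 were higher and 1 lower (median 0.18), with 5 higher without vehicle 2 or DFMO 3. Cln6 encodes an ER membrane protein that hands enzymes on to the lysosome and is mutated in a form of neuronal ceroid lipofuscinosis. The Gm10653 row opposite Cln6 held 988, 888 and 873 CPM in the vehicle libraries and 1988, 1978 and 1962 CPM in the DFMO libraries (1.11 ± 0.11, adjusted p = 3.6e-11). The level about doubled, with almost no spread among the DFMO libraries. Ctsa encodes cathepsin A, which protects lysosomal sialidase and galactosidase, and 2 rows face it. The Pltp row held 1055, 1049.7 and 1233 CPM with vehicle against 1844, 1522 and 1804 CPM with DFMO (0.63 ± 0.12, adjusted p = 7.6e-05), and the Neurl2 row changed by 0.81 ± 0.15, adjusted p = 4.7e-05.

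Rows opposite the voltage-gated proton channel gene Hvcn1 (Tctn1, 1.28 ± 0.29), the cathepsin gene Ctsz (Nelfcd, 1.23 ± 0.28) and the lysosomal ion channel gene Tmem175 (Dgkq, 1.05 ± 0.31) rose from mean levels of about 100 CPM or less. The Tmem175 call was lost without vehicle 2 or DFMO 3 (adjusted p up to 0.108). The Ctsz value rests on an overlap of 10 bp with the Nelfcd row. Scpep1, a serine carboxypeptidase, was faced by Scpep1os (0.26 ± 0.09, adjusted p = 0.0434). Acp2 encodes lysosomal acid phosphatase, and the Ddb2 row opposite it changed by 0.29 ± 0.10, adjusted p = 0.0352, so that the 2 rows of the Acp2 and Ddb2 locus moved in opposite directions. The small rises of Scpep1 and Acp2 were lost without any 1 library (adjusted p up to 0.190 and 0.175). The 1 fall was opposite Gga3, a trans-Golgi sorting adaptor (Mrps7, -1.23 ± 0.36, adjusted p = 0.0126), a call lost without vehicle 3, DFMO 2 or DFMO 3 (adjusted p up to 0.113). The Mrps7 row overlaps 127 bp of Gga3 and 119 bp of Mif4gd. Rows opposite the cathepsin gene Ctsb (0.03 ± 0.21), the cholesterol transporter gene Npc1 (-0.15 ± 0.22) and the autophagy gene Becn1 (0.03 ± 0.10) were not called.

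Of 28 genes of ER to Golgi traffic and the Golgi, 7 were higher and 0 lower (median 0.09), and 4 were higher without vehicle 1, vehicle 3 or DFMO 1. Yipf2 encodes a Golgi membrane protein. The Carm1 row opposite it (gene ID 59035, chromosome 9, 21546894 to 21592623, 1025 bp of overlap) held 1276, 1306 and 1151 CPM in the vehicle libraries and 3175, 2631 and 2353 CPM in the DFMO libraries (1.13 ± 0.11, adjusted p = 3.6e-11). DFMO 3, the lowest treated library, was well above every vehicle library. Yif1a, of the same protein family, was faced by Cnih2 over 14 bp (1.26 ± 0.28, adjusted p = 9.5e-04).

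Further rises were called opposite Surf4, an ER export receptor (Surf2, 0.54 ± 0.15, adjusted p = 0.00753), Vti1b, a SNARE protein (Arg2, 0.87 ± 0.26, adjusted p = 0.0157), Preb, which activates the coat GTPase Sar1 (Abhd1, 0.40 ± 0.12, adjusted p = 0.0234), and Cog5 of the Golgi tether (Hbp1, 0.30 ± 0.10, adjusted p = 0.0426). The Surf2 row overlaps 144 bp of Surf4 and 137 bp of Surf1, so its value cannot be credited to Surf4 alone. The row opposite the Golgi mannosidase gene Man1a (Gm16998) held 3 counts in vehicle and 40 with DFMO, a ratio of 15.6 (95% interval 4.97 to 78.8, counting error only, which would be wider were counts halved), with adjusted p = 0.00422. At 1.83, 0 and 3.17 CPM in vehicle, this row passed the filter on low counts only through groups where it is higher. Its call is therefore weak support for the list counts that include it, and it was tested under 11 of the 13 alternatives. The Surf4 call was lost without vehicle 3 or DFMO 1, that of Vti1b without any 1 library except vehicle 3 and DFMO 2, that of Preb without vehicle 1, vehicle 3, DFMO 1 or DFMO 2, and that of Cog5 without any except DFMO 1 (adjusted p up to 0.104, 0.0896, 0.292 and 0.376). Rows at high counts that were not called include those opposite Arfgap2 (1110051M20Rik, -0.16 ± 0.08) and Ergic2 (Far2, 0.14 ± 0.09).

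Of 14 genes of ER chaperones and the unfolded protein response, 4 were higher and 0 lower (median 0.36), and 2 were higher without vehicle 1, vehicle 2 or DFMO 2. Ost4 encodes a small subunit of the complex that adds N-linked glycans. The Agbl5 row opposite it held 1073, 1094 and 1297 CPM in the vehicle libraries and 1959.9, 2337 and 1879.8 CPM in the DFMO libraries (0.83 ± 0.11, adjusted p = 1.2e-07). Ppib encodes the ER prolyl isomerase cyclophilin B, and the Snx22 row opposite it held 9266, 9357 and 9769 CPM in the vehicle libraries and 13719.6, 14516 and 10995 CPM in the DFMO libraries (0.47 ± 0.10, adjusted p = 3.4e-04). In both the groups did not overlap. The calls opposite the signal peptidase gene Spcs1 (Glt8d1, 0.90 ± 0.25, adjusted p = 0.00934) and the disulfide isomerase gene Pdia6 (Atp6v1c2, 0.61 ± 0.22, adjusted p = 0.0498) did not hold in the fit without vehicle 1, vehicle 2 or DFMO 2, the latter also not without DFMO 1 or DFMO 3, with adjusted p up to 0.0960 and 0.316. The Pdia6 value rests on an overlap of 50 bp. The Mroh8 row, opposite Rpn2 of the glycosylation complex, was the best covered of the list after Snx22 and was not called (0.18 ± 0.09, adjusted p = 0.164).

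**Figure D3:**
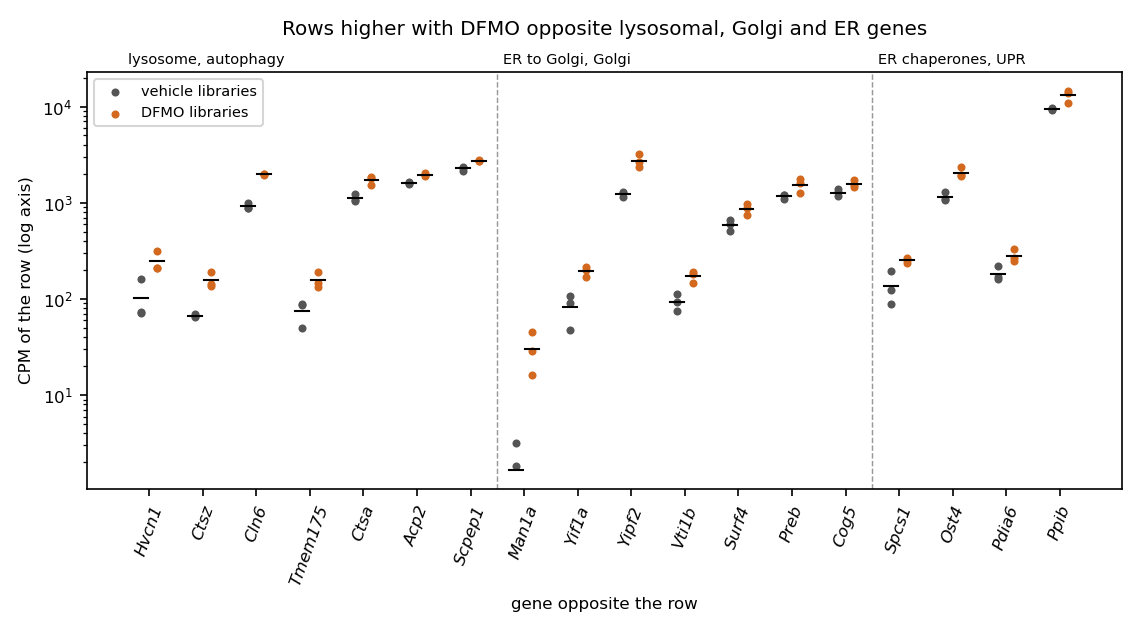
CPM on a log axis for each vehicle library (grey) and DFMO library (orange) of 18 of the 19 higher rows, named by the lysosomal, Golgi or ER gene faced; black bars are group means. Levels run from a few CPM (Man1a, with vehicle 2 at 0 and not drawn) to the highest level of the plot (Ppib). The groups do not overlap in any of these 18 rows. They were chosen by their call, and 260 of all 266 rows called higher had separate groups.

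The other rises of lowest p lay opposite genes with varied roles. Jmjd8 encodes a JmjC domain protein, and the Stub1 row (gene ID 56424, chromosome 17, 25830505 to 25833404, 1084 bp of overlap) held 3125, 3021 and 3033 CPM in the vehicle libraries and 6629, 7095 and 5736 CPM in the DFMO libraries (1.08 ± 0.09, adjusted p = 6.2e-13). Tuba4a encodes an alpha-tubulin (Stk16, 565, 553 and 616 CPM with vehicle against 1468, 1362 and 1168 CPM with DFMO; 1.20 ± 0.14, adjusted p = 4.2e-09). Both rows had separate groups. Prepl encodes a peptidase-like protein whose loss causes a congenital myasthenic syndrome in humans, and the Slc3a1 row opposite it held 2793, 2480.2 and 2335 CPM with vehicle against 4402, 4167 and 4361 CPM with DFMO (0.77 ± 0.09, adjusted p = 1.6e-08). Rows opposite Cerkl (Itga4, 1.13 ± 0.14), related to ceramide kinase, Comtd1 (A430057M04Rik, 0.86 ± 0.11) and the metallopeptidase gene Amz2 (Slc16a6, 0.96 ± 0.13) completed the 12 with the lowest p, with adjusted p between 2.0e-08 and 3.2e-07.

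Among rows of larger change and lower level, Gm19461, opposite Plekha6, held 34.7, 33.7 and 25.4 CPM with vehicle against 182, 249 and 182 CPM with DFMO (2.71 ± 0.38, adjusted p = 4.0e-07), and Rsbn1, opposite Phtf1os, 27.1 ± 7.22 CPM with vehicle and 145 ± 24.7 CPM with DFMO (2.41 ± 0.39, adjusted p = 8.6e-06). Prickle4, opposite Tomm6os, changed by 2.73 ± 0.63, adjusted p = 0.00138. The rows opposite Zzz3 (Ak5, 2.82 ± 0.80; 12 bp, against 33 bp with AI115009), Dab2ip (Gm13446, 2.78 ± 0.86), Far2 (Ergic2, 2.11 ± 0.69) and Nmt1 (Dcakd, 2.06 ± 0.65) held under 100 CPM in every library. These 4 calls were each lost without 2 to 5 of the single libraries.

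The 3 rising rows of lowest p that face no gene were Arhgef17, Slc39a7 and Dixdc1. Arhgef17 held 7112, 7133 and 5154 CPM in the vehicle libraries and 18219, 15126 and 14708 CPM in the DFMO libraries (1.31 ± 0.10, adjusted p = 1.2e-14). Slc39a7, a zinc transporter of the ER by its own symbol, held 87.8, 71.5 and 66.7 CPM with vehicle against 466, 414 and 397 CPM with DFMO (2.49 ± 0.23, adjusted p = 9.2e-12), and Dixdc1 changed by 2.25 ± 0.24, adjusted p = 4.5e-10. For all 3 the groups were separate, which was a condition of naming them. Which transcript the reads came from was not tested. The 3 falling rows of lowest p of this kind were Inpp5f (-1.08 ± 0.14, adjusted p = 1.7e-07), Bora, whose product activates mitotic kinases (-1.09 ± 0.22, adjusted p = 1.9e-04), and Zfp867 (-1.38 ± 0.28, adjusted p = 3.5e-04).

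Hnrnph3 encodes an RNA-binding splicing factor. The Rufy2 row (gene ID 70432, chromosome 10, 62980223 to 63017210), with 115 bp of overlap, held 8454, 9424 and 8525 CPM in the vehicle libraries and 3735, 3507 and 4309 CPM in the DFMO libraries (-1.19 ± 0.09, adjusted p = 1.2e-14). Dek encodes an abundant chromatin protein, and the Kdm1b row opposite it held 6490.3, 7502 and 7277 CPM in the vehicle libraries and 3066, 3408 and 3601 CPM in the DFMO libraries (-1.08 ± 0.09, adjusted p = 3.7e-13). Neither row had overlapping groups. Rpl5 encodes a ribosomal protein that binds 5S ribosomal RNA, and the Fam69a row opposite it held 1649.5, 1536 and 1995 CPM with vehicle against 686, 673 and 799.6 CPM with DFMO (-1.26 ± 0.12, adjusted p = 9.3e-12).

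The ribosome list as a whole did not move one way: 3 of 26 genes faced were higher and 3 lower, with a median of -0.20. Besides Rpl5, the lower ones were Exosc9 and Nol3 (4931428F04Rik, -0.54 ± 0.15), and the higher ones Rrp7a, a ribosome assembly factor (Serhl, 0.58 ± 0.10, adjusted p = 1.4e-05), Tsr2 (Fgd1, 0.46 ± 0.13) and Rpl32 (Cand2, 0.43 ± 0.12, 53 bp of overlap). The calls of Nol3, Tsr2 and Rpl32 were lost without DFMO 1, without vehicle 1 or DFMO 2, and without vehicle 1, vehicle 2 or DFMO 2. Of 9 genes of translation initiation and elongation edgeR called 0, with 1 at unadjusted p under 0.05, and DESeq2 also called 0. Of 15 chromatin genes 2 were lower and 0 higher: Suv39h2, a histone H3 lysine methyltransferase (Dclre1c, -1.01 ± 0.18, adjusted p = 4.8e-05), and Smarca2, a remodelling ATPase (4931403E22Rik, -0.43 ± 0.14, 40 bp of overlap), whose call needed vehicle 1, vehicle 2 and DFMO 2. Phf10, a subunit of the same family of remodelling complexes, was faced by 1600012H06Rik, at 1981, 2108 and 2057 CPM with vehicle against 1047, 1157 and 1333 CPM with DFMO (-0.80 ± 0.10, adjusted p = 1.2e-07).

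Txnip encodes thioredoxin-interacting protein, which glucose induces strongly in beta cells. The Gm15441 row (gene ID 100038000, chromosome 3, 96555765 to 96566801), with 606 bp of overlap, held 769.9, 860.4 and 955 CPM in the vehicle libraries and 364, 299 and 345 CPM in the DFMO libraries (-1.36 ± 0.14, adjusted p = 6.8e-11). Every DFMO library was below 400 CPM and every vehicle library above 700 CPM. Of the 8 genes of carbohydrate response and glycolysis, this and the malic enzyme gene Me1 (A330041J22Rik, -0.67 ± 0.15, adjusted p = 9.5e-04; 30 bp of overlap, against 66 bp with Gm25949) were lower and 0 higher (median -0.08).

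Stress-related genes were faced by few rows. Gadd45a, a growth arrest and DNA damage gene, was faced by E230016M11Rik, at 4813, 4617 and 4976 CPM with vehicle against 2943, 2686 and 3012 CPM with DFMO (-0.74 ± 0.09, adjusted p = 1.6e-08). With Ddb2 it made 2 lower of 3 genes of the p53 list. Ddit3, which encodes CHOP, was the 1 lower of 4 genes of the integrated stress response (Mars, 368, 351 and 441 CPM with vehicle against 227, 246 and 257 CPM with DFMO; -0.67 ± 0.17, adjusted p = 0.00376). Nfkb2 encodes p100, the precursor of a noncanonical NF-kB subunit, and the Psd row opposite it held 704, 929.8 and 692 CPM with vehicle against 385, 409 and 413 CPM with DFMO (-0.94 ± 0.13, adjusted p = 4.0e-07), the 1 lower of 4 genes of its list. Groups were separate in each of these rows. The Mars row overlaps Ddit3 exons by 68 bp.

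The beta cell list gave 1 higher and 1 lower of 6 genes faced. Pcsk2 encodes prohormone convertase 2, which cuts proinsulin. The Pcsk2os1 row opposite it held 18335, 19791 and 16613 CPM in the vehicle libraries and 27664, 28188 and 25619 CPM in the DFMO libraries (0.57 ± 0.08, adjusted p = 3.2e-07). The Pcsk2os2 row, which faces another stretch of Pcsk2, changed by 0.58 ± 0.08, adjusted p = 4.5e-07. The rows facing beta cell markers summed to 36457 to 41808 CPM in vehicle and 53072 to 58975 CPM in DFMO, nearly all of it in these rows. These sums use no TMM factors, so they are on another scale than the values of single rows. Bach2, a transcriptional repressor, was faced by Bach2os, at 331, 236 and 262 CPM with vehicle against 123, 83.6 and 160.3 CPM with DFMO (-1.17 ± 0.31, adjusted p = 0.00504), a call not made by DESeq2. The row opposite the homeodomain gene Nkx2-2 (Nkx2-2os) stayed within the spread at 3433, 3355 and 3065 CPM with vehicle against 3156, 3126 and 3092 CPM with DFMO (-0.07 ± 0.10, adjusted p = 0.754).

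By own symbol 1 of 16 tested beta cell markers was higher and 0 lower. This was Chgb, a granule protein gene with no gene opposite, at 2121, 1832 and 2543 CPM with vehicle against 2728, 2464 and 3239 CPM with DFMO (0.37 ± 0.12, adjusted p = 0.0211). The groups overlapped, and the call was lost without vehicle 1, vehicle 2 or DFMO 3 and with DESeq2. Ins2 (insulin), Iapp (islet amyloid polypeptide) and Chga (chromogranin A) changed by -0.49 ± 0.25, -0.43 ± 0.23 and -0.05 ± 0.13, and were not called. Of 13 genes of granule exocytosis and excitability, 1 was higher, Kcnn2, a calcium-activated potassium channel (A330093E20Rik, 1.15 ± 0.36, adjusted p = 0.0211), a call lost without vehicle 2, vehicle 3 or DFMO 2 and with DESeq2.

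Polyamine genes were faced by few tested rows, and several of their rows by own symbol held few counts. The Odc1 row, named for the target of DFMO, faces no gene and held 11.0, 0 and 12.7 CPM with vehicle against 4.73, 4.40 and 24.0 CPM with DFMO. The groups overlapped and the change of 0.46 ± 1.14, adjusted p = 0.878 leaves all but large differences of this row undetected. If reads were counted on the other strand, the row does not measure Odc1 at all. Of 2 polyamine genes faced by tested rows, 1 was lower, Mat2a, which makes S-adenosylmethionine, the source of the aminopropyl groups (Particl, 741, 633 and 736 CPM with vehicle against 565, 495 and 507 CPM with DFMO; -0.43 ± 0.14, adjusted p = 0.0260). This call was lost without vehicle 1, vehicle 3, DFMO 2 or DFMO 3 (adjusted p up to 0.114). The other, Arg2, an arginase that supplies ornithine, was not called (Vti1b, -1.09 ± 0.70, adjusted p = 0.356).

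By own symbol 9 polyamine rows were tested, of which 2 were higher and 1 lower. If reads were counted on the other strand, these rows do not measure the genes they are named for. The higher ones were Arg2, opposite Vti1b and given above, and Dhps, deoxyhypusine synthase, opposite Wdr83 (75.0, 116 and 74.6 CPM with vehicle against 128, 196 and 170.3 CPM with DFMO; 0.91 ± 0.29, adjusted p = 0.0230). The lower one was the antizyme gene Oaz3, opposite Tdrkh (-0.53 ± 0.18). The calls of Dhps and Oaz3 were lost without vehicle 1, vehicle 3, DFMO 2 or DFMO 3, and that of Oaz3 also without vehicle 2. Eif5a, which carries hypusine, changed by -0.18 ± 0.66, adjusted p = 0.923, and its paralogue Eif5a2 held 3 counts in vehicle and 23 with DFMO, a ratio of 8.97 (95% interval 2.71 to 46.7, with the same limits), with an adjusted p of 0.175. The transporter genes Atp13a3 (-0.14 ± 1.02) and Slc3a2 (-0.35 ± 0.40) and the Mat2a row itself, opposite Particl (0.29 ± 0.19), were not called.

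Of 17 genes of the respiratory chain and ATP synthase, 2 were higher and 2 lower, where 17.8% of all genes faced were called either way. The higher ones were the cytochrome oxidase assembly genes Cox20 (Hnrnpu, 0.56 ± 0.12, adjusted p = 3.5e-04) and Sco2 (Ncaph2, 0.46 ± 0.12, lost without DFMO 2), and the lower ones Cox6a2, a muscle isoform of a cytochrome oxidase subunit (Itgad, -1.20 ± 0.30, adjusted p = 0.00329; 70 bp of overlap, against 388 bp with 4931431B13Rik and 102 bp with Gm39091), and Uqcrc2 (Pdzd9, -0.62 ± 0.22), a call lost without any 1 library except DFMO 3 and with DESeq2. The Ncaph2 row overlaps 829 bp of Sco2 and 535 bp of Tymp. Of 22 genes of the mitochondrial ribosome, import and dynamics 1 was lower, Mrpl43 (Twnk, -0.47 ± 0.09, adjusted p = 2.1e-04). Of 7 proteasome and ubiquitin genes 1 was higher, Ube3a (Snhg14, 0.29 ± 0.10, lost without any 1 library except vehicle 2), and 2 lower, the ubiquitin-conjugating enzyme genes Ube2e1 (Nkiras1, -0.45 ± 0.09) and Ube2d3 (4930539J05Rik, -0.68 ± 0.16).

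Of 15 interferon and antigen presentation genes, 1 was higher (H2-T22, A930015D03Rik, 1.59 ± 0.55) and 2 lower (Erap1, which trims peptides, Cast, -1.53 ± 0.47, and Parp9, Dtx3l, -1.01 ± 0.34), all at under 80 CPM and each lost under at least 3 alternatives. Of 4 NRF2 genes 1 was higher, the peroxiredoxin gene Prdx5 (Trmt112, 0.47 ± 0.15), and 2 lower, Txnip and Nqo2 (Serpinb6a, -0.85 ± 0.28). The Prdx5 call was lost without vehicle 1, DFMO 2 or DFMO 3, and that of Nqo2 without any 1 library except vehicle 2. The Serpinb6a row overlaps 762 bp of Nqo2, 584 bp of 1110046J04Rik and 241 bp of Ripk1. Of 6 genes of cholesterol and fatty acid synthesis edgeR called 0, with 0 at unadjusted p under 0.05 and a median of 0.37, and DESeq2 called 0 as well.

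**Figure D4:**
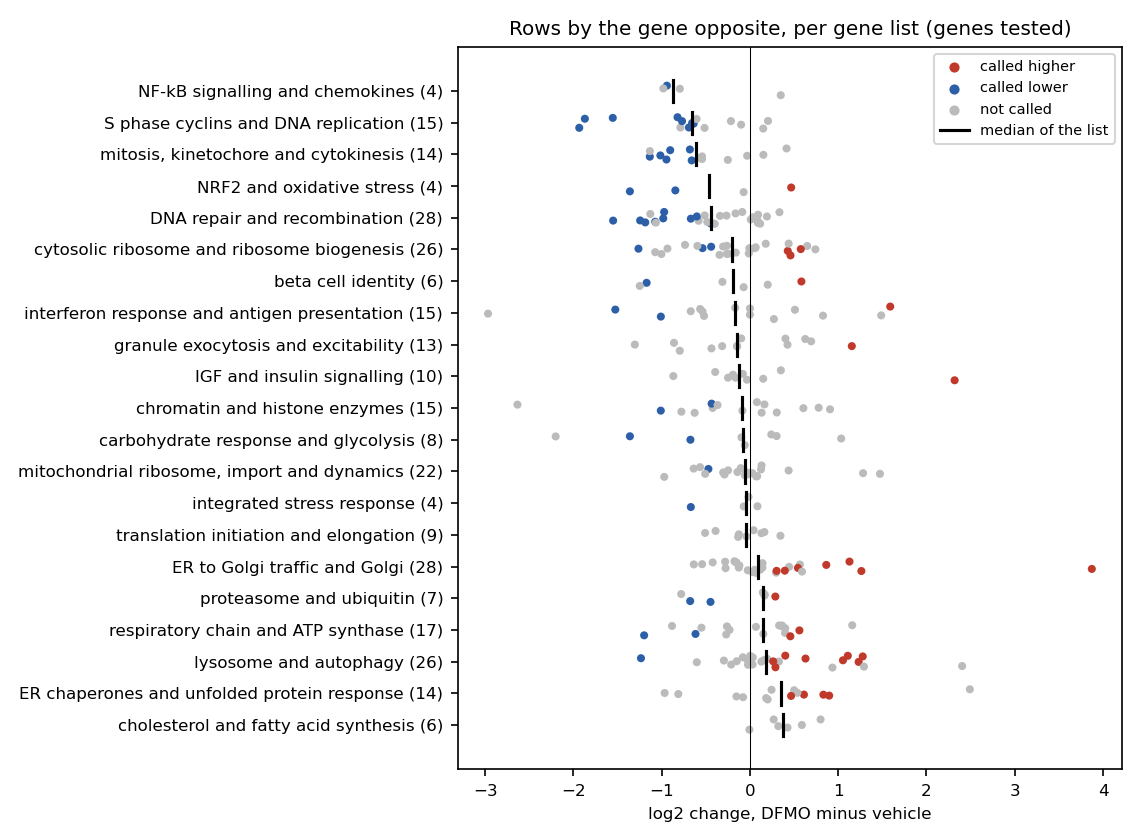
Log2 change (DFMO minus vehicle) of each gene faced, by gene list with the number tested in parentheses; red and blue points are called higher and lower, grey points are not called, and black bars are list medians. The replication, repair and mitosis lists hold blue and no red points with medians of -0.66, -0.44 and -0.61, and the lysosome, Golgi and ER lists hold 19 red points and 1 blue one.

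The remaining large falls lay at lower levels. Adam17, opposite Iah1, held 850.4, 892 and 967 CPM with vehicle against 215, 213 and 477 CPM with DFMO (-1.57 ± 0.17, adjusted p = 1.3e-09), with DFMO 3 at over 2 times the level of the other DFMO libraries. Gpr39, opposite Lypd1, a modulator of nicotinic receptors, held 176, 151 and 287 CPM with vehicle against 28.4, 48.4 and 56.1 CPM with DFMO (-2.20 ± 0.34, adjusted p = 3.6e-06), and Krtcap2, opposite Trim46, 82.3, 73.6 and 80.9 CPM with vehicle against 21.3, 8.80 and 24.0 CPM with DFMO (-2.11 ± 0.46, adjusted p = 7.9e-04). Rows opposite Spats1 (B230354K17Rik, -2.53 ± 0.90), the AP-1 gene Fosl1 (Ccdc85b, -2.13 ± 0.75), the mechanosensitive channel gene Piezo1 (Ctu2, -1.96 ± 0.61) and Arhgap20 (Arhgap20os, -1.89 ± 0.65) were below 100 CPM in every library, and each of these calls was lost without 4 or more of the single libraries.

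Rows were also counted by what they face, and differences between these classes were not tested. Of 1538 rows facing exons of a protein-coding gene, 126 were higher and 164 lower (8.19% and 10.7%). Of 528 rows facing exons of another kind of gene, 59 were higher and 15 lower (11.2% and 2.84%). Rows facing a gene body without exon overlap had 24 higher and 6 lower of 266, and rows facing no gene 53 higher and 27 lower of 927 (5.72% and 2.91%, 8.63% either way). Levels differed too, with a median of 138 CPM in vehicle in the first class and 30.2 CPM in the second. At a mean of at least 200 CPM there were 87 higher and 123 lower of 622 rows in the first class and 20 and 4 of 48 in the second. Over the alternatives the first class had 77 to 134 higher and 114 to 195 lower rows, the second 42 to 67 and 7 to 18, and rows facing no gene 33 to 60 and 17 to 40.

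The effect of DFMO was also measured in cells given cytokines, in libraries that share none with the comparison above. There 365 of 3302 rows changed (11.1%), 174 higher (5.27%) and 191 lower (5.78%). Of the 266 rows higher without cytokines 245 also lay above 0 with them and 110 were called, and of the 216 lower rows 197 lay below 0 and 107 were called. The replication, repair and mitosis lists had medians of -0.80, -0.49 and -0.65 with cytokines, with 8, 8 and 6 genes lower and 0 higher. Of the lysosomal genes 6 were higher and 0 lower (median 0.32), of the Golgi genes 1 was higher and 1 lower (median 0.12), and of the ER genes 1 was higher and 0 lower (median 0.08).

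The difference between the effects was itself tested, and passed in 14 rows (0.424%; 6 higher, 0.182%, and 8 lower, 0.242%), with 279 rows at unadjusted p under 0.05. Among the rows named here it passed for Igf2os opposite Igf2, Gm11747 opposite C1qtnf1, Adam17 opposite Iah1 and Psd opposite Nfkb2. For the first 3 the effect with cytokines was smaller in the same direction, at 1.10 ± 0.12, 0.41 ± 0.18 and -0.60 ± 0.16. The Psd row did not move with DFMO under cytokines beyond its error (-0.03 ± 0.12). Opposite Ccne2 the effects were -1.55 ± 0.09 without and -1.68 ± 0.09 with cytokines (difference -0.12 ± 0.13, adjusted p = 0.893), and opposite Ppib 0.47 ± 0.10 and 0.07 ± 0.10 (difference -0.40 ± 0.13, adjusted p = 0.292).

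DENSpm was compared with DFMO directly, since effects measured against the same vehicle libraries are only set side by side. Of 3713 rows in that fit 414 differed between the drugs (11.2%), 217 higher in DENSpm (5.84%) and 197 lower (5.31%). DENSpm against vehicle changed 27 rows (0.727%), 14 higher (0.377%) and 13 lower (0.35%). The DFMO libraries enter both the DFMO comparison and that between the drugs, so the values are given side by side as a description. For the replication, repair and mitosis lists the medians with DENSpm were -0.23, 0.03 and 0.15, and 7, 7 and 6 genes were higher in DENSpm than in DFMO, with 1 repair gene lower. For the lysosome, Golgi and ER lists the medians were -0.10, -0.10 and -0.03, and 5, 6 and 4 genes were lower in DENSpm than in DFMO, with 2, 1 and 0 higher.

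Opposite Hnrnph3 the change was -1.19 ± 0.09 with DFMO and 0.40 ± 0.11 with DENSpm, and DENSpm exceeded DFMO by 1.62 ± 0.11, adjusted p = 1.1e-14. The change with DENSpm against vehicle was not called there (edgeR, adjusted p = 0.0652). Opposite Igf2 DENSpm gave -0.05 ± 0.14, and the drugs differed by -2.35 ± 0.15, adjusted p = 8.6e-16. The row opposite Pcsk2 (Pcsk2os1) rose with DFMO and stood at -0.43 ± 0.13 with DENSpm, which was not called against vehicle (edgeR, adjusted p = 0.109). The drugs differed there by -0.98 ± 0.13, adjusted p = 6.9e-07. Txnip was unlike these: its row changed by -1.40 ± 0.17 with DENSpm, and DENSpm minus DFMO was -0.01 ± 0.17, adjusted p = 0.974, a difference not detected with that error.

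**Figure D5:**
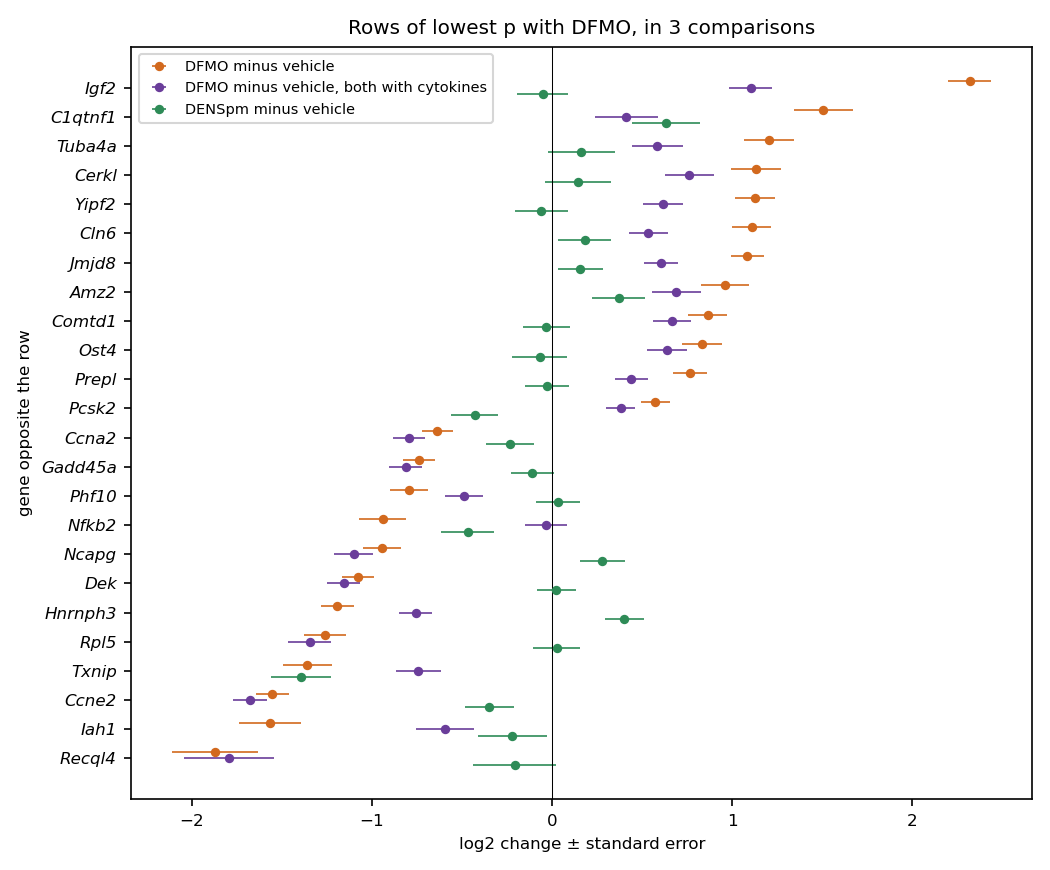
Log2 change ± SE of the 12 higher and 12 lower rows of lowest p that face a gene, for DFMO against vehicle (orange), DFMO against vehicle with cytokines (purple) and DENSpm against vehicle (green, 18-library fit). The orange and green comparisons share the vehicle libraries; the green points lie near 0 in most rows but beside the orange one at Txnip (-1.40).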

How the data were processed

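RNA of MIN6 cells was sequenced on a NovaSeq from TruSeq libraries with poly(A) selection that keep strand, per the labels' protocols. The authors deposited raw counts per gene; HTSeq, mm10, FastQC and DESeq2 are named, with no version, per the submitters' processing notes. For the aligner, the annotation and the strand setting: not given in the sources used here. The authors' normalised log2 values were not used.

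Rows (24557) were matched by symbol (24008) or gene ID (191) to GENCODE M21 on GRCm38, the same assembly as mm10, and 26 symbols altered by date conversion were restored. Each row was assigned the gene on the other strand with the most exon overlap, preferring established symbols over clone names. Some named rows also overlap exons of other genes there, and not every such overlap is given. If reads were counted on the wrong strand, a row measures the gene it faces only in the overlap.

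Counts were tested with edgeR 4.0.16 (R 4.3.3): TMM factors, filterByExpr by group, robust quasi-likelihood F test, Benjamini-Hochberg adjustment, 1 mean per group, over the 12 libraries of the DFMO table (3302 rows, biological coefficient of variation 0.26). DENSpm was set against DFMO in a fit of 18 libraries (3713 rows). The script was tested on simulated data. It called 14.3% of rows set to 1.5-fold, 44% of those at 2-fold, 72.9% at 4-fold and 27.3% at 0.5-fold. Of its calls 1.3% were false. A row that was not called may therefore still have changed. The 6 libraries hold 436327 to 625539 counts, which limits precision at low levels, and intervals cover counting error only. Counts of 2 outnumber counts of 1 (8480 against 5027 table cells), so halved counts were an alternative. Replicates differed beyond sampling noise (chi-square per degree of freedom 3.43 to 4.77).

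Named genes are, by the gene faced, the 12 rising and 12 falling rows of lowest p, the 8 and 8 of largest change at a mean of 20 CPM or more (both with groups that do not overlap and without clone symbols), up to 6 called rows per list, all polyamine rows, beta cell markers with at least 100 counts, and the 3 and 3 rows of lowest p facing no gene. Called members of the replication, repair, lysosome and Golgi lists beyond 6, members shown as not called, and rows in the figures were named after their values were seen. List counts take the row with the most counts for each gene, and named rows the one of lowest p. The rows facing no gene were also required to have groups that do not overlap. Some members are counted in the lists but not reported here by name. Members and lists were chosen with earlier results of these data known. Alternatives were DESeq2 1.42.0, other scaling factors, filters and samples, halved counts, a replicate block and leaving out each library.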

Additional observations from a re-analysis of the deposited data

Results flagged for a closer look

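The DFMO effect with cytokines minus that without passed the test of the difference (edgeR interaction term, adjusted over 3302 rows) in 4 rows named in the report. The difference was -1.22 ± 0.16, adjusted p = 4.1e-06 for Igf2os, opposite Igf2, whose means were 2071 and 10330.4 CPM without cytokines and 1182 and 2540.3 CPM with them, in vehicle and DFMO. It was -1.09 ± 0.24, adjusted p = 0.0214 for Gm11747, opposite C1qtnf1, and 0.97 ± 0.23, adjusted p = 0.0368 for Adam17, opposite Iah1. For Psd, opposite Nfkb2, it was 0.91 ± 0.18, adjusted p = 0.00549, where vehicle with cytokines stood at 2917 CPM and vehicle without at 775 CPM.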

How the results depend on the processing

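For DFMO versus vehicle without cytokines, changed rows numbered 332 to 389 in the fits without 1 library and 347 (no filter) to 544 (DESeq2) in the others, against 482. The higher rows numbered 172 to 213 in the fits without 1 library, with 172 without DFMO 2, and the lower rows 153 to 179. DENSpm against DFMO gave 131 lower rows with no filter on low counts, against 197; the cause was not tested, and more rows enter the adjustment there. Of 100 named rows that were called, 65 kept the call under every alternative that tested them, 35 lost it under at least 1, and 0 reversed. Among the rows that kept it, Prickle4 was tested under 12 of the 13 alternatives and Gm16998 under 11. The median log2 change of all rows tested moved by at most 0.03 under any alternative. No shared deviation of same-numbered vehicle and DFMO libraries was detected (correlations of -0.0197, 0.00127 and 0.0446), which cannot exclude that they were paired. With a replicate block 253 rows were higher and 205 lower (458 in all). Depth limits the reading of rows under 50 CPM: of those facing coding exons 8 were higher and 15 lower of 460, against 87 and 123 of 622 at 200 CPM or more.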
